A study of Mus musculus with 6 samples.

Results

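The core glycolysis enzymes described here are Hk2, Gpi1, Pfkl, Aldoa, Tpi1, Gapdh, Pgk1, Pgam1, Eno1 and Ldha, 10 genes for steps between glucose and lactate. Pyruvate kinase is a step of this route without a gene among the 10, and Pkm is described with the other isoforms and steps. A probe set was taken for a gene when the platform annotation gave it exactly 1 gene symbol and that symbol was one of the 10. This gave 15 probe sets for 7 genes, out of 22626 probe sets that are not array controls and 12393 genes that the array names by 1 symbol. Aldoa had 4 probe sets, Tpi1 and Pgk1 had 3 each, Pfkl had 2, and Hk2, Pgam1 and Ldha had 1 each. Gpi1 and Eno1 had none under this rule and were not analysed here. Gapdh had none either. Its 2 probe sets annotated with several symbols were not used here, and it is described by the 3 Affymetrix control probe sets that lie along its transcript.

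The samples were LSK cells from mouse bone marrow, sorted by flow cytometry. These cells lack the markers of mature lineages, carry Sca-1 and Kit on their surface, and are enriched in haematopoietic stem cells. There were 3 arrays labelled Gfi1 knockout and 3 labelled wild type, numbered 5, 7 and 8 in both groups. Gfi1 encodes a zinc finger repressor of transcription. The labels give no strain, age, knockout allele or number of mice per sample, so p-values measure only the spread between these samples, which may be technical.

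Glycolysis splits glucose into pyruvate in the cytosol and yields ATP without oxygen, and lactate dehydrogenase then turns pyruvate into lactate and regenerates NAD+. Haematopoietic stem cells are known to rely on glycolysis more than their progeny do while they are quiescent in the low-oxygen marrow. The transcription factors HIF-1 and Myc are known to activate many genes of the pathway.

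The measurements can be read only with the identity of the samples in view. The single Gfi1 probe set did not fall with the knockout label: the 3 arrays so labelled had signals of 692.4, 1163 and 1737, against 632.0, 608.2 and 722.7 on the wild-type arrays. Its difference was 0.76 ± 0.28 (SE) on the log2 scale, short of the threshold (limma adjusted p = 0.148). It passed, at an adjusted p of 0.0354, without knockout array 5. The labels do not say which part of Gfi1 is deleted, and a probe set outside that part would check nothing. The groups are therefore named by their labels, on which each direction given below depends.

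The median signal was 285.7 on knockout array 8, the lowest, and 317.5 to 335.0 on the other arrays. Per array, 67.0% to 74.4% of probe sets exceeded the brightest of its controls for Bacillus transcripts. All 15 glycolysis probe sets were above that control on all 6 arrays, and all 15 were among the 13575 bright probe sets that were tested. Signals are in arbitrary units, and the small number of arrays limits the precision.

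Markers of other cells also differed between the groups, and their part in the results below was not tested. The summed signal of 11 neutrophil markers was 7409 to 14974 on knockout-labelled arrays, against 20867 to 42104 on wild-type arrays. That of 10 monocyte and macrophage markers was 24571 to 26653 on knockout-labelled arrays, against 18235 to 20293 on wild-type arrays. The 9 erythroid markers summed to 11764 to 12405 in the knockout-labelled group, against 20988 to 27923 in wild type, with Epb42 at or below the Bacillus level on every array. The sums of the groups did not overlap for these 3 lists, but their members differed in direction. Among the neutrophil markers 5 of 9 tested fell and 1 rose: Mmp8, the neutrophil collagenase, by 2.21 on the log2 scale. Of all 13575 tested probe sets, 2.19% fell and 1.44% rose at the same threshold, a limma adjusted p under 0.05. Among the monocyte markers 4 of 9 rose and 0 fell. One of them, Mpeg1, was lower on every knockout-labelled array than on any wild-type array, but did not pass (-0.44 ± 0.18, limma adjusted p = 0.2). Among the erythroid markers 1 of 7 fell and 0 rose. The one that fell was Car2, a carbonic anhydrase, with means of 4224 in the knockout-labelled group and 14028 in wild type, whereas Alas2, Slc4a1, Klf1 and Epor overlapped between the groups. The 9 B and plasma cell markers gave 14573 to 25604 in the knockout-labelled group, against 14863 to 23843 in wild type. Jchain made up most of these sums, with 12273 to 22783 against 11748 to 20234 in wild type. Of the 6 tested, 1 was above 0, and 0 rose and 0 fell. Sdc1 differed by -0.87 ± 0.34 (limma adjusted p = 0.180, or 0.0444 with the sample number as a replicate block). Ebf1 was not tested, and its means of 66.2 and 180 in wild type came from arrays without overlap. Pax5 was at or below the Bacillus level throughout. The 9 T and NK cell markers gave 3164 to 3762 against 2777 to 2978 in wild type, also without overlap, with Cd4 and Cd8b1 at or below that level. Of the 2 tested, 0 rose and 0 fell. The brightest of the list, Nkg7, had signals of 2250, 2727 and 2403 in the knockout-labelled group, against 1605, 1680 and 1937 in wild type (limma adjusted p = 0.135). Kit, the receptor by which LSK cells are sorted, was itself lower, with a mean of 4225 ± 624 in the knockout-labelled group and 6899 ± 960 in wild type (SD, n = 3 each; log2 difference -0.71 ± 0.17, limma adjusted p = 0.0381). The Kit call was lost without any of knockout arrays 5, 7 and 8 or wild-type arrays 7 and 8, where the adjusted p reached 0.132, and with median centring (0.103). Ly6a, the Sca-1 gene, was not analysed here. In bulk samples of this kind, fewer cells of a type and less RNA per cell cannot be told apart.

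All 15 glycolysis probe sets had a higher mean on the knockout-labelled arrays. Their log2 differences ran from 0.21 to 0.82 with a median of 0.48, while the median over all 13575 tested probe sets was -0.01, with 48.9% of them above 0. With the arrays centred on their medians, the glycolysis median was 0.54. That over all tested probe sets was then 0.05, with 7512 of the 13575 above 0. The spread was too large for most single calls: 2 probe sets, those of Pgam1 and Pgk1, rose past an adjusted p of 0.05, and none fell. Among all tested probe sets, 1.44% rose and 2.19% fell under that test. At an unadjusted p under 0.05, 9 of the 15 were higher and 0 were lower, while 9.08% of all tested probe sets were higher and 10.5% lower. In 11 of the 15, from 6 genes, every knockout-labelled array was above every wild-type array, whereas 11.9% of all tested probe sets had that order and 12.1% had the reverse. Probe sets of 1 gene measure the same transcripts, so the 15 are not 15 separate observations.

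The same arrays were fitted with the sample number as a replicate block, since the same-numbered arrays of the groups deviate together. Then 4 probe sets rose, 1 each of Tpi1, Pgk1, Pgam1 and Ldha, and 0 fell, while 2.36% of all tested probe sets rose and 3.53% fell.

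**Figure D1:**
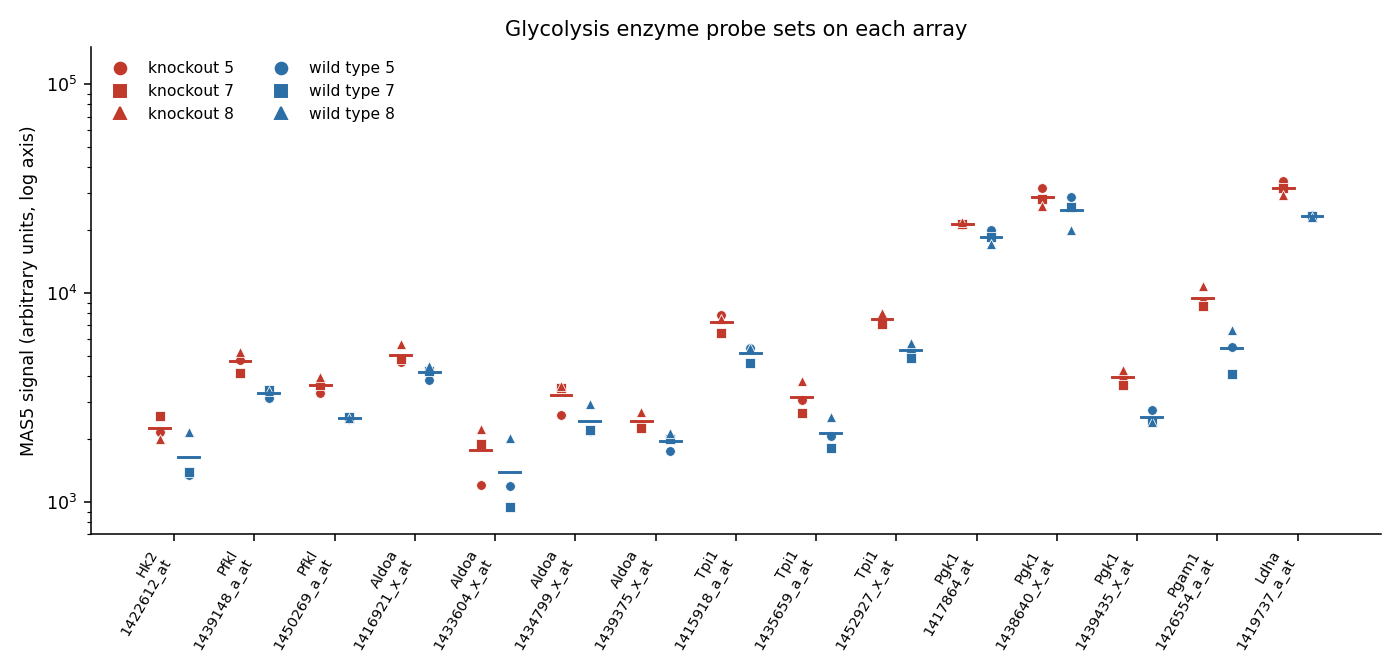
Signal (log axis, arbitrary units) of each glycolysis probe set on the 3 knockout-labelled arrays and, to their right, the 3 wild-type arrays, in the order of the pathway, with 1 point per array and a line at each group's mean. The points of the groups do not overlap in 11 of the 15 panels, and they overlap for Hk2, for 2 Aldoa probe sets and for 1 Pgk1 probe set.

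Stretches of promoter sequence show which genes carry the letters that HIF-1 is known to bind. The motif ACGTG, the core of that element, was searched on both strands in the 250 bases before each gene start of the RefSeq table (build GRCm38.p6). It was found for 5 of the 8 measured genes (Hk2, Aldoa, Pgk1, Pgam1 and Ldha) and not for Pfkl, Tpi1 or Gapdh, and 18.5% of all 27025 genes hold it. The longer palindrome CACGTG, an E-box of the kind Myc binds, contains ACGTG on both strands and was present for 1 of the 8, Ldha, and for 6.86% of all genes. AATCACNGC, part of the consensus for Gfi1, was present for 0 of the 8 and for 0.903% of all genes. The stretches shown belong to the genes whose probe sets rose in either fit and have the motif, and to Hk2, the gene of the entry step. Capitals mark ACGTG, or CACGT where it lies on the other strand, and each line runs 5′ to 3′ on the strand of the gene.
Hk2, chr6:82774472-82774536, minus strand: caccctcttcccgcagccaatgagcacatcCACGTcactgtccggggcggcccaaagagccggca
Pgk1, chrX:106186920-106187003, plus strand: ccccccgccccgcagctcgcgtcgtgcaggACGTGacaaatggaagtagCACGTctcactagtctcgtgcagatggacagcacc
Pgam1, chr19:41911727-41911791, plus strand: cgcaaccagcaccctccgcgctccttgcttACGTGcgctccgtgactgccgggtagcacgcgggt
Ldha, chr7:46845629-46845803, plus strand: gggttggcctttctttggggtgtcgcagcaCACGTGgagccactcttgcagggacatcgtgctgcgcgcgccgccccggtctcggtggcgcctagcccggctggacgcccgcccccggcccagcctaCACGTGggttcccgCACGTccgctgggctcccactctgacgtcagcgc
The Ldha stretch holds the motif at 3 places, 2 of which are the full palindrome. Ldha has 2 gene starts in the RefSeq table, and the motif lies before only 1 of them, the start shown. For Hk2 the searched bases hold 2 matches, and only the 1 nearer the gene start is shown. A match is a description of these letters and does not show that a factor binds there.

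Hk2 encodes the inducible hexokinase that traps glucose in the cell as glucose 6-phosphate. Its probe set had signals of 2167, 2577 and 2011 on knockout-labelled arrays 5, 7 and 8, against 1348, 1398 and 2171 on wild-type arrays 5, 7 and 8. Wild-type array 8 stood with the knockout-labelled arrays, so the groups overlapped. The difference was 0.48 ± 0.21 (SE; 95% interval 0.03 to 0.94) and did not pass (limma adjusted p = 0.225). Without that array it was 0.70, the highest of the 6 values obtained by leaving out 1 array each, and it did not pass then either (limma adjusted p = 0.0697).

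Pfkl encodes the liver-type subunit of phosphofructokinase, which catalyses the committed step of the pathway. The probe set 1439148_a_at had signals of 4767, 4128 and 5241 in the knockout-labelled group, against 3128, 3448 and 3399 in wild type. The second, 1450269_a_at, had 3320, 3639 and 3951 in the knockout-labelled group, against 2484, 2564 and 2510 in wild type. Both separated the groups without overlap, and both gave about the same difference. It was 0.50 ± 0.16 for the first and 0.52 ± 0.16 for the second, and neither passed (limma adjusted p = 0.107 and 0.0918).

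Aldoa encodes aldolase A, which cleaves fructose 1,6-bisphosphate into the pair of triose phosphates. All of its probe sets carry the suffix _x_at, with which Affymetrix marks sets that hold some probes matching other sequences. The brightest, 1416921_x_at, had signals of 4655, 4851 and 5717 in the knockout-labelled group, against 3852, 4230 and 4470 in wild type, without overlap (difference 0.27 ± 0.16). The groups did not overlap for 1439375_x_at either, at 2336, 2264 and 2700 in the knockout-labelled group, against 1757, 2006 and 2130 in wild type (0.31 ± 0.17). The other two overlapped because of wild-type array 8. The probe set 1434799_x_at had 2602, 3509 and 3609 in the knockout-labelled group, against 2194, 2214 and 2933 in wild type (0.40 ± 0.19). Signals of 1433604_x_at were 1206, 1903 and 2233 in the knockout-labelled group, against 1191, 945.1 and 2023 in wild type (0.39 ± 0.28). No Aldoa probe set passed the threshold, and the limma adjusted p-values lay between 0.268 and 0.499.

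Tpi1 encodes triosephosphate isomerase, which makes both triose phosphates available to the rest of the pathway. Its 3 probe sets separated the groups completely. The brightest, 1452927_x_at, had signals of 7457, 7118 and 8013 in the knockout-labelled group, against 5308, 4909 and 5788 in wild type. Those of 1415918_a_at were 7819, 6446 and 7481 in the knockout-labelled group, against 5481, 4646 and 5442 in wild type. In both groups array 7 was the lowest of the 3 for each of these. The same order held for 1435659_a_at, with 3067, 2655 and 3792 in the knockout-labelled group, against 2067, 1807 and 2554 in wild type. The differences were 0.50 ± 0.15, 0.48 ± 0.15 and 0.56 ± 0.19 in the order given, with limma adjusted p-values of 0.0824, 0.103 and 0.129. With the replicate block 1452927_x_at passed (limma adjusted p = 0.0472), and the others came to 0.0537 and 0.0562. The probe set that passed is the only Tpi1 probe set with the suffix _x_at, described above for Aldoa.

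Gapdh encodes glyceraldehyde 3-phosphate dehydrogenase, which makes the NADH that lactate dehydrogenase later uses up. Arrays of this kind carry it as a control of RNA quality, with probe sets near the 3' end, in the middle and near the 5' end of the transcript. The 3' control had signals of 16447, 15099 and 14717 in the knockout-labelled group, against 11166, 10551 and 11926 in wild type. The middle control had 9555, 9618 and 10168 in the knockout-labelled group, against 6076, 6294 and 6709 in wild type. The 5' control had 2690, 3510 and 3323 in the knockout-labelled group, against 1949, 2375 and 2115 in wild type. All 3 separated the groups without overlap, with log2 differences of 0.46, 0.62 and 0.56 from 3' to 5'. An exact two-sided permutation test over the arrays gave p = 0.1 for each, the smallest that 3 against 3 allows. When the controls were added to the fit across all probe sets, an alternative chosen after the data were seen, the middle control passed (limma adjusted p = 0.0269) and the 3' and 5' controls did not (0.076 and 0.0996). With the replicate block the 3' control passed as well (limma adjusted p = 0.0416).

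The Gapdh ratio of 3' over 5' control signal shows how much signal is lost away from the 3' end. It was 6.11, 4.30 and 4.43 on the knockout-labelled arrays, against 5.73, 4.44 and 5.64 on the wild-type arrays. It averaged 4.95 ± 1.01 in the knockout-labelled group and 5.27 ± 0.718 in wild type (SD, n = 3 each), with a log2 difference of -0.10 (exact two-sided permutation p = 0.8). The beta-actin controls, from a gene outside the pathway, overlapped between the groups, with differences of -0.10 at the 3' end, 0.00 in the middle and -0.08 at the 5' end (exact permutation p = 0.4, 1.0 and 0.4). Their 3' to 5' ratio averaged 1.24 ± 0.0666 in the knockout-labelled group and 1.26 ± 0.183 in wild type (SD, n = 3 each).

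**Figure D2:**
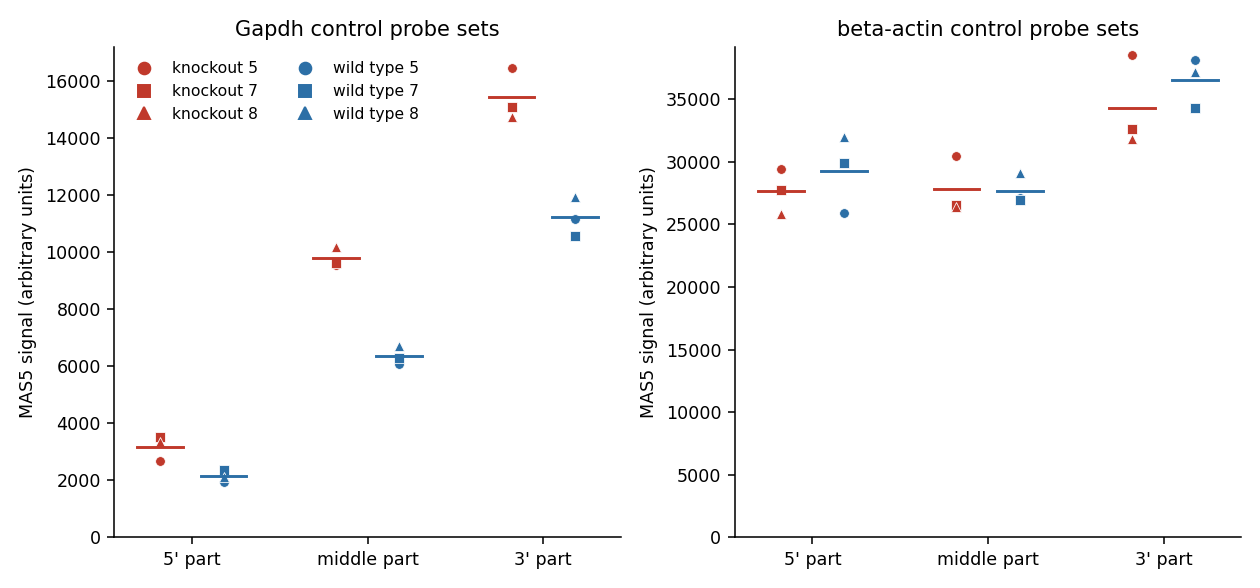
Signal (linear axis, arbitrary units) of the Gapdh and beta-actin control probe sets near the 3' end, in the middle and near the 5' end, with 1 point per array, knockout-labelled left of wild type. All Gapdh points of the knockout-labelled group lie above those of wild type at all 3 positions, and the beta-actin points overlap at all 3.

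Pgk1 encodes phosphoglycerate kinase, the first ATP-yielding step, and its 3 probe sets disagreed in size. The probe set 1439435_x_at had signals of 3986, 3640 and 4287 in the knockout-labelled group, against 2765, 2445 and 2411 in wild type. It rose by 0.64 ± 0.16, or 1.56-fold (limma adjusted p = 0.0454). That call was lost without any 1 of the 6 arrays (adjusted p 0.053 to 0.183), and also with median centring, quantile normalization, cyclic loess, eBayes without trend or no brightness filter. The second, 1417864_at, had 21200, 21449 and 21859 in the knockout-labelled group, against 19937, 18535 and 17170 in wild type, without overlap. Its difference was 0.22 ± 0.13 (limma adjusted p = 0.374). Alone among the Pgk1 probe sets it lacks the suffix _x_at, which the probe set that passed carries and which marks some probes matching other sequences. The third, 1438640_x_at, had 31661, 28154 and 26247 in the knockout-labelled group, against 28943, 25923 and 20006 in wild type, and the groups overlapped. Its difference was 0.21 ± 0.15 (limma adjusted p = 0.480). The second and the third had the smallest differences of the 15 probe sets.

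Pgam1 encodes phosphoglycerate mutase, which moves the phosphate of 3-phosphoglycerate to the second carbon. Its probe set had signals of 8963, 8669 and 10855 in the knockout-labelled group, against 5541, 4107 and 6688 in wild type. Every knockout-labelled array was above every wild-type array, and array 7 was the lowest and array 8 the highest of both groups. Pgam1 rose by 0.82 ± 0.19, or 1.77-fold, the largest difference of the 15 (limma adjusted p = 0.0281; 0.00921 with the replicate block). The call was lost without knockout array 5, 7 or 8 or wild-type array 7, held without wild-type array 5 or 8 (adjusted p 0.0124 to 0.145 over the 6), and was lost without the brightness filter or the trend (0.0761 and 0.105).

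Ldha encodes the A subunit of lactate dehydrogenase, the form that favours the making of lactate. Its probe set had signals of 34529, 31905 and 29416 in the knockout-labelled group, against 23725, 23273 and 23208 in wild type. The wild-type arrays were close together and all knockout-labelled arrays were well above them. The difference was 0.45 ± 0.12, or 1.36-fold, and did not pass (limma adjusted p = 0.0619). It passed with the replicate block (limma adjusted p = 0.0251), with median centring (0.0417), with quantile normalization (0.0167) and with cyclic loess (0.0439), but with no 1 array left out (0.0953 to 0.166).

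**Figure D3:**
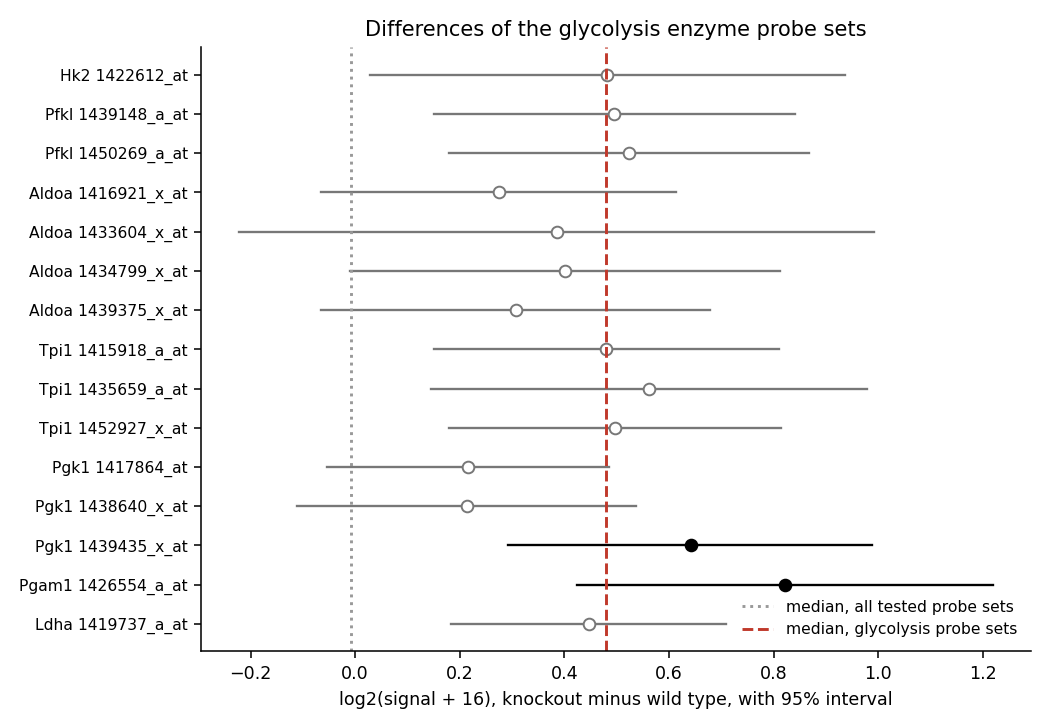
Log2 difference of each glycolysis probe set, knockout-labelled minus wild type, with its 95% interval, in the order of the pathway. Filled circles passed an adjusted p of 0.05 and open circles did not, and all points lie to the right of 0.

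The average profile of the enzymes separated the groups. Each gene's brightest probe set was centred on its own mean, and the average over the 7 genes was 0.24, 0.19 and 0.26 on knockout-labelled arrays 5, 7 and 8, against -0.25, -0.31 and -0.13 on wild-type arrays 5, 7 and 8. Wild-type array 8 was thus the nearest of its group to the knockout-labelled arrays. Among tested genes outside all the lists used here, those with the smallest root mean square log2 difference from this average profile over the 6 arrays were Kars (0.0304), Prrc1 (0.0341), Ttc27 (0.0347), Uqcrfs1 (0.0390) and Thoc3 (0.0404). Kars encodes lysyl-tRNA synthetase, Uqcrfs1 the Rieske subunit of respiratory complex III, and Thoc3 a subunit of the THO complex of mRNA export. Chosen for this profile, they carry no test.

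Other isoforms and steps of glycolysis were mixed in direction. Of the 10 tested genes of that list, 0 rose and 1 fell, with a median difference of -0.14 and 4 of 10 above 0. Of all tested probe sets 1.44% rose and 2.19% fell, and these shares also stand beside the counts of the lists below. The one that fell was Ldhb, the B subunit of lactate dehydrogenase, the form that favours the use of lactate. Its brightest probe set had signals of 1495, 1297 and 1492 in the knockout-labelled group, against 2912, 2773 and 3287 in wild type. It fell by 1.06 ± 0.17 on the log2 scale (limma adjusted p = 0.00503), a call that held with each array left out in turn (0.0122 to 0.0275). The other 3 Ldhb probe sets fell too, with differences of -1.35, -1.26 and -1.41 (limma adjusted p = 0.00661, 0.00136 and 0.00174), and none of the 4 overlapped between the groups.

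Ldha, which did not pass, and Ldhb, which fell, can also be set against each other within an array. The log2 ratio of Ldha to Ldhb signal within an array was higher in the knockout-labelled group by 1.5, 1.8, 1.7 and 1.9 for the 4 Ldhb probe sets. This ratio was chosen after the values had been seen, and since each gene's arrays already did not overlap, it is a description with no test.

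Pkm, the pyruvate kinase of most tissues outside the liver, had signals of 7828, 7790 and 7923 in the knockout-labelled group, against 5173, 6124 and 5851 in wild type. The groups did not overlap, but the difference of 0.46 ± 0.15 did not pass (limma adjusted p = 0.0990). Hk1, the constitutive hexokinase, overlapped between the groups and differed by 0.24 ± 0.18 (limma adjusted p = 0.517). The other phosphofructokinase subunits also gave no call, with differences of 0.42 for Pfkp of the platelet type and -0.19 for Pfkm of the muscle type (limma adjusted p = 0.272 and 0.596).

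**Figure D4:**
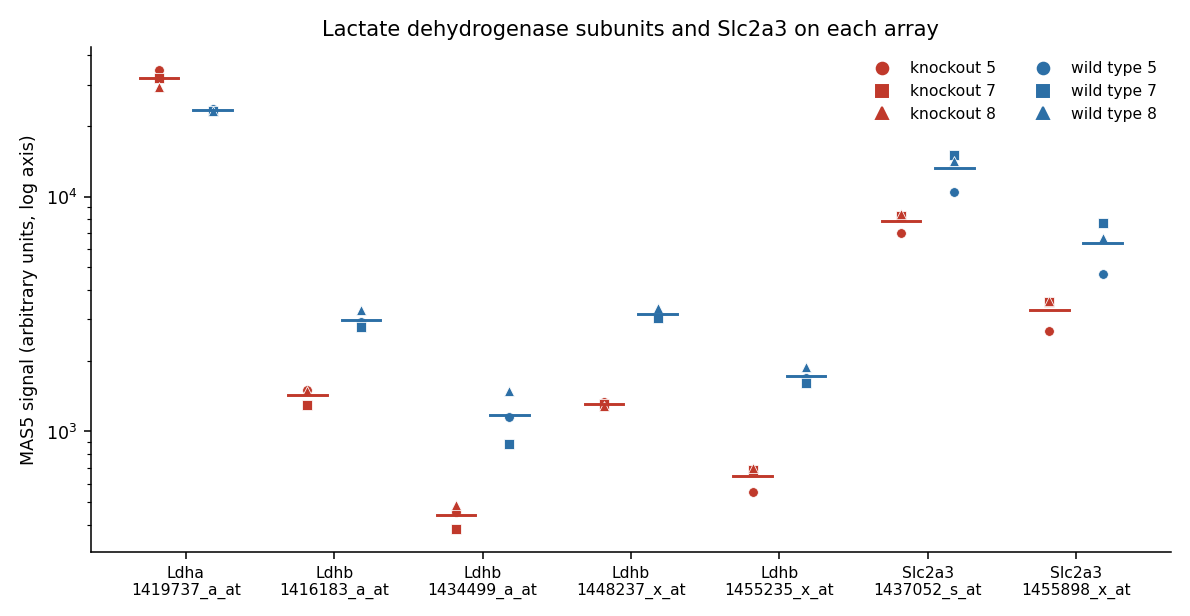
Signal (log axis, arbitrary units) of Ldha, Ldhb and Slc2a3 probe sets, with 1 point per array, knockout-labelled left of wild type. Ldha lies higher in the knockout-labelled group, and the Ldhb and the tested Slc2a3 probe sets lie lower, with no overlap between the groups. The Slc2a3 probe sets too dim to be tested are not shown.

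Transport of glucose and lactate was measured by 6 tested genes, of which 0 rose and 1 fell (median difference 0.31). The one that fell was Slc2a3, which encodes the high-affinity glucose transporter GLUT3. It had signals of 7024, 8261 and 8452 in the knockout-labelled group, against 10448, 15022 and 14143 in wild type, and fell by 0.73 ± 0.17 on the log2 scale (limma adjusted p = 0.0290). Without wild-type array 5 the adjusted p was 0.0114, and without any other array the call was lost (up to 0.131), as it was with median centring (0.0756). A second Slc2a3 probe set fell as well, by 0.93 ± 0.20 (limma adjusted p = 0.0233), a call lost with median centring and without knockout array 5, 7 or 8 or wild-type array 7 (up to 0.117). Slc2a1, the widely expressed glucose transporter GLUT1, overlapped between the groups, with a difference of 0.61 ± 0.35 (limma adjusted p = 0.370). Slc16a1, the lactate transporter MCT1, had 451.5, 531.9 and 583.7 in the knockout-labelled group, against 227.7, 377.0 and 286.9 in wild type. It did not overlap, but its difference of 0.80 ± 0.26 did not pass (limma adjusted p = 0.102).

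Among 12 tested regulators of glycolysis, 1 rose and 1 fell (median difference -0.18), and with the replicate block 1 rose and 2 fell. With the block 2.36% of all tested probe sets rose and 3.53% fell. Egln3, a prolyl hydroxylase that marks HIF proteins for degradation and is itself a HIF target, rose by 0.83 ± 0.21, with means of 2031 ± 367 in the knockout-labelled group and 1134 ± 193 in wild type (SD, n = 3 each; limma adjusted p = 0.0430). Mycn, a relative of Myc, had signals of 1617, 1838 and 2075 in the knockout-labelled group, against 3219, 2729 and 3379 in wild type, and fell by 0.75 ± 0.18 on the log2 scale (limma adjusted p = 0.0339). Both calls were sensitive to single arrays: Egln3 passed only without wild-type array 8 (0.0487, and up to 0.186 without another), and Mycn did not pass with any 1 array left out (0.0630 to 0.104). With median centring neither passed (0.0623 for Egln3 and 0.0972 for Mycn), and the second Egln3 probe set did not pass in the first place (0.75, limma adjusted p = 0.0985). Txnip, an inhibitor of glucose uptake, differed by -0.92 ± 0.26 and did not pass (limma adjusted p = 0.0691), but did with the replicate block (0.0154) and without wild-type array 5 (0.0483). Hif1a and Myc, which encode the factors named above as activators of the pathway, differed by -0.21 ± 0.20 and 0.04 ± 0.22 (limma adjusted p = 0.612 and 0.954).

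The list of other HIF-1 targets, which holds no glycolysis enzyme, lay mostly below 0. Of its 11 tested genes 3 were above 0, the median difference was -0.34, 0 rose and 1 fell, and with the replicate block 3 fell, beside 3.53% of all tested probe sets. Ddit4, an inhibitor of mTORC1 induced by stress, had signals of 1631, 1884 and 2025 in the knockout-labelled group, against 2438, 3942 and 4925 in wild type. It fell by 0.97 ± 0.23 on the log2 scale (limma adjusted p = 0.0351), a call that passed only without wild-type array 5 (0.00501) and reached 0.139 without another array. With median centring it was lost (0.0779). The others that passed with the block were Vegfa, an angiogenic growth factor, and Kdm3a, a histone demethylase, with differences of -1.45 ± 0.41 and -0.79 ± 0.24. Their limma adjusted p-values were 0.0698 and 0.0843, and 0.0134 and 0.0458 with the block. Vegfa also passed without wild-type array 5 (0.0123), and Kdm3a without wild-type array 8 (0.0416). Egln3, the HIF target that rose, is counted with the regulators and not in this list. Ero1a, a member of the list, differed by 0.20 ± 0.20 for its brightest probe set. Its dimmer probe sets differed by 0.75 ± 0.23, without overlap, and by 0.08 ± 0.25. None passed (limma adjusted p = 0.651, 0.0918 and 0.904), but the one at 0.75 did without knockout array 5 (0.0427).

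The pentose phosphate pathway branches from glucose 6-phosphate and makes NADPH and ribose. Of its 9 tested genes 8 were above 0 (median 0.22), 2 rose and 0 fell. Prps1, which encodes the synthetase that activates ribose 5-phosphate for nucleotide synthesis, had signals of 6469, 6960 and 6732 in the knockout-labelled group, against 4046, 4290 and 4704 in wild type. It rose by 0.63 ± 0.15 (limma adjusted p = 0.0338), and passed only without wild-type array 8 when an array was left out (0.0395, and up to 0.133). With median centring it did not pass (0.0508). Pgd, which encodes 6-phosphogluconate dehydrogenase, had 5786, 5058 and 5696 in the knockout-labelled group, against 3221, 2255 and 3936 in wild type, and rose by 0.84 ± 0.20 (limma adjusted p = 0.0331). It too passed only without wild-type array 8 (0.0127, and up to 0.139). Its 3 dimmer probe sets did not pass, with differences of 0.59, 0.76 and 0.27 (limma adjusted p = 0.0819, 0.0538 and 0.489). The first and the second of these passed with the replicate block (0.0472 and 0.0311) and without wild-type array 8 (0.0464 and 0.0187). Alone among the Pgd probe sets, the first of the dimmer ones lacks the suffix _x_at, described above for Aldoa. Tkt, the transketolase that links this pathway back to glycolysis, differed by 0.33 ± 0.15 (limma adjusted p = 0.251).

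Genes of gluconeogenesis and glycogen split evenly, with 6 of 11 tested above 0, a median of 0.03, 1 that rose and 0 that fell. G6pc3, the glucose 6-phosphatase of cells outside the liver, had signals of 1165, 1668 and 1530 in the knockout-labelled group, against 457.3, 511.4 and 930.3 in wild type. It rose by 1.23 ± 0.26 (limma adjusted p = 0.0218), and the call was lost without knockout array 7 or 8 or wild-type array 5 or 7 (up to 0.107). Entry of pyruvate to mitochondria showed 0 calls in either direction among 8 tested genes, with a median of 0.12. At an unadjusted p under 0.05, 1 of these was higher and 0 were lower by limma. It was Mpc1, a subunit of the mitochondrial pyruvate carrier, chosen after its value was seen (0.42 ± 0.18, limma adjusted p = 0.223).

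**Figure D5:**
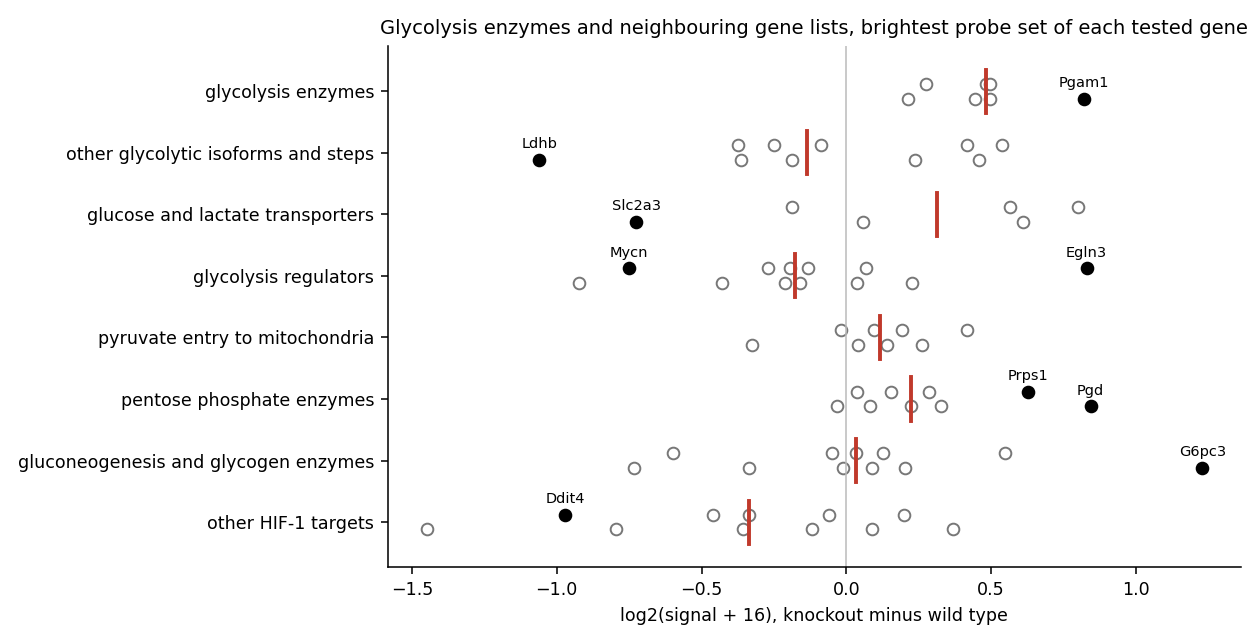
Log2 difference, knockout-labelled minus wild type, of each tested gene by its brightest probe set, for the core glycolysis enzymes and the lists of related genes, with a line at each list's median. Filled circles passed an adjusted p of 0.05 and open circles did not, and all 7 core enzymes lie above 0, with a median of 0.48. The other HIF-1 targets have a median of -0.34, and Egln3, itself a HIF target, is counted among the regulators.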

How the data were processed

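There were 6 single-colour Affymetrix arrays, 1 per sample, with 2 rounds of amplification from 10 ng of total RNA per the labels' protocols. The authors deposited linear intensity values, made with MAS5 per the submitters' processing notes. The MAS5 version is not given in the sources used here. The deposited columns were already scaled, with a trimmed mean of 1000.33 to 1000.37 on every array. Repeated amplification favours the 3' end of transcripts.

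The signals were not normalized further and were taken as log2(signal + 16). Of 22626 probe sets that are not array controls, the 60% with the highest mean log2 value were tested, 13575 in all. limma 3.58.1 in R 4.3.3 fitted knockout-labelled minus wild-type arrays (lmFit, eBayes with trend, two-sided), with Benjamini-Hochberg adjustment over all tested probe sets and a threshold of 0.05. Folds on this scale understate changes of dim probe sets. The fit was tested on simulated data. The platform annotation gave 1 symbol to 20380 probe sets, several to 691, and it can be old; 20351 matched RefSeq, which changed 0 symbols. Single array controls were tested by exact permutation.

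The members and lists were chosen with earlier results of these data known, and no list was tested as a set. Named were all member probe sets, up to 4 genes past the threshold with the largest difference from each other pathway list, the 5 genes with the most similar profile, and Gfi1, Hif1a, Myc, Slc2a1, Pkm, Hk1, Ldhb, Kit and Ly6a whatever their values; list genes are given by their brightest probe set. Marker lists are given as sums. Isoforms and transporters were compared in addition. Txnip, Tkt, Vegfa, Kdm3a, Mpc1, Ero1a, Mpeg1, Jchain, Ebf1 and Sdc1 were chosen after their values were seen. The sample numbers come from the titles. Deviations from group means correlated at 0.159, 0.168 and 0.238 between same-numbered arrays of the groups and at -0.134 to -0.0307 between others, so the numbers were taken to pair the samples. Each group was centred on its own mean, so positive values force others below 0, and the negative ones are no separate evidence. The pairing itself was not tested. Alternatives were no filter, median centring, quantile normalization, cyclic loess, pseudocounts of 1 and 64, eBayes without trend, the replicate block, leaving out each array, and leaving out probe sets with the suffixes _x_at, _s_at and _a_at.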

Additional observations from a re-analysis of the deposited data

How the results depend on the processing

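All 15 glycolysis probe sets kept a positive difference in every alternative run. The count that rose, 2, became 0 without the brightness filter, 0 with eBayes without trend, 4 with the replicate block, 0 when only the 2 probe sets without the suffixes _x_at, _s_at or _a_at were used, and 0 to 1 when 1 array was left out. It stayed at 2 with both other pseudocounts and under median centring, quantile normalization and cyclic loess, where Ldha passed in place of the Pgk1 probe set. None fell under any alternative; at an unadjusted p under 0.05 limma gave 0 lower. The median difference of 0.48 was 0.35 over those 2 probe sets, 0.40 to 0.52 with 1 array left out, and otherwise 0.45 to 0.54. Over all tested probe sets, 196 higher and 297 lower became 69 and 119 without the filter, 57 and 124 without the trend, 320 and 479 with the replicate block, 169 and 193 with median centring, and 34 to 266 and 90 to 282 with 1 array left out. With the replicate block the Gapdh 3' to 5' log2 ratio differed by -0.10. The Myc difference of 0.04 ran from -0.21 to 0.20 with 1 array left out and was below 0 without knockout array 8 (-0.21) or wild-type array 5 (-0.02). Calls of the pathway genes named other than Ldhb were lost without the filter or the trend. The block changed no other call of the glycolysis probe sets or of the named pathway genes' brightest probe sets than those given with it. Median centring ended the calls of Slc2a3, Egln3, Mycn, Prps1, Ddit4 and Kit. The cause of these changes was not tested. No detection calls were used, so signal near the Bacillus level limits what dim genes such as Slc2a1 can show.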
